A study of Mus musculus with 6 samples.

Results

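The 10 cytosolic heat shock chaperone and regulator genes described here (Hspa1a, Hspa1b, Hspa8, Hsp90aa1, Hsp90ab1, Hsph1, Dnajb1, Hspb1, Hsf1 and Bag3) were chosen by gene symbol, and all 10 were found among the 23038 genes listed for each library. They were measured by mRNA sequencing in NSC-34 cells, a mouse hybrid line made from neuroblastoma and spinal cord cells and used as a motor neuron-like model. A control siRNA (siNC, 3 libraries) or siRNA directed at Qk (siQk, 3 libraries) was given to these cells, which carry no other stated change and were taken at a single time after transfection. Qk encodes the Quaking RNA-binding proteins. The siQk group mixed 3 different siRNAs, and which library received which is not stated in the sources used here. The replicates were separate cultures of 1 cell line, so the spread between them describes NSC-34 cultures only. Among the siQk libraries the spread may also hold differences between siRNAs, which cannot be told apart from differences between cultures.

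Cytosolic chaperones bind unfolded or partly folded proteins. Hsp70 proteins hold and release client segments in an ATP-driven cycle, in which J-domain proteins such as Dnajb1 deliver clients and nucleotide exchange factors such as Hsph1 and Bag3 release ADP. Hsp90 proteins finish the folding of kinases and steroid receptors, and small heat shock proteins such as Hspb1 hold clients without ATP. When misfolded proteins accumulate, the transcription factor Hsf1 is freed from chaperones, binds heat shock elements (repeated GAA units in alternating orientation) and raises the transcription of inducible members, foremost Hspa1a and Hspa1b. Motor neurons are known for a high threshold for this response.

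Library totals ran from 43000503 to 53565950 expected counts, and 16055 to 16515 genes per library had at least 1 count. Of the neuronal marker list, 7 of 10 genes were above 1 RPKM (reads scaled by exon length and library total) on average, with summed levels of 251 to 523 RPKM in siNC and 381 to 526 RPKM in siQk libraries. Among the motor neuron markers, Isl1 stood at 4.75 to 4.83 RPKM in siNC and 7.80 to 9.63 RPKM in siQk libraries (log2 fold change 0.82, SE 0.10, adjusted p = 0.9996, edgeR), without overlap of the groups. Slc18a3 stood at 1.56 to 2.29 RPKM with overlapping groups. Chat stood at 0.0297 to 0.0777 RPKM (7 to 17 counts) in siNC and 0.0997 to 0.141 RPKM (21 to 35 counts) in siQk libraries, also without overlap and below the filter. The part of Isl1 and Chat in the members' values was not tested. Mnx1 was at most 0.0944 RPKM in any library, and the neuronal gene Stmn2 was at most 0.00796 RPKM. The neuroblastoma list had 5 of 6 genes above 1 RPKM. None of the 4 astrocyte, 4 microglia and 4 fibroblast markers was above 1 RPKM on average, and no such list summed to more than 0.222 RPKM in a library. The oligodendrocyte list had 2 of 6 genes above 1 RPKM, summing to 6.64 to 8.68 RPKM in siNC and 5.78 to 8.25 RPKM in siQk libraries. The RNA is from whole cultures, where fewer cells expressing a gene and less of its RNA per cell cannot be told apart.

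The targeted gene Qk (GRCm38 chromosome 17, 10202601 to 10319854, minus strand) stood at 9.67, 8.18 and 14.9 RPKM in siNC and at 1.39, 1.71 and 1.10 RPKM in siQk replicates 1 to 3. The groups did not overlap, and siQk kept 12.8% of the siNC mean. On the log2 scale Qk fell by 3.00 (SE 0.34, adjusted p = 0.0149, edgeR quasi-likelihood test). The call was lost without siNC replicate 1 (log2 fold change -3.09, adjusted p = 0.125, edgeR), where the number of genes called was 0.

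None of the chaperone genes passed the test for a change after Qk knockdown. With edgeR, 0 of the 8 members that passed the filter on low levels were called at p under 0.01 and an adjusted p under 0.1, where 0.0079% of the 12665 genes tested were called (1 gene, Qk). At an unadjusted p under 0.05 the count was also 0 of 8, where 2.89% of tested genes had such a p. DESeq2 called 0 members where it called 0.150% of tested genes (19 genes), and both other edgeR tests (exact and likelihood-ratio) called 0 members where each called 0.0395% (5 genes). These shares are so small that 0 of 8 does not set the members apart from other genes. In RPKM, the siNC and siQk ranges overlapped for all 8 tested members, where 8.84% of tested genes had groups that did not overlap. Log2 fold changes of the 8 members ran from -0.22 to 0.28 with a median of 0.10, and 7 were above 0. Over all 12665 tested genes the median was 0.0034, and 6438 were above 0. The members' median was 0.0062 without siNC replicate 3, -0.019 without siQk replicate 3 and 0.18 without siNC replicate 1. Adjusted p was 0.9996 for each of the 8 members (edgeR). The exact permutation p given with each member is two-sided, on RPKM, and cannot go below 0.1 with 3 against 3 libraries. The 2 other members, Hspa1a and Hspa1b, lay below the filter and are given as levels.

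**Figure D1:**
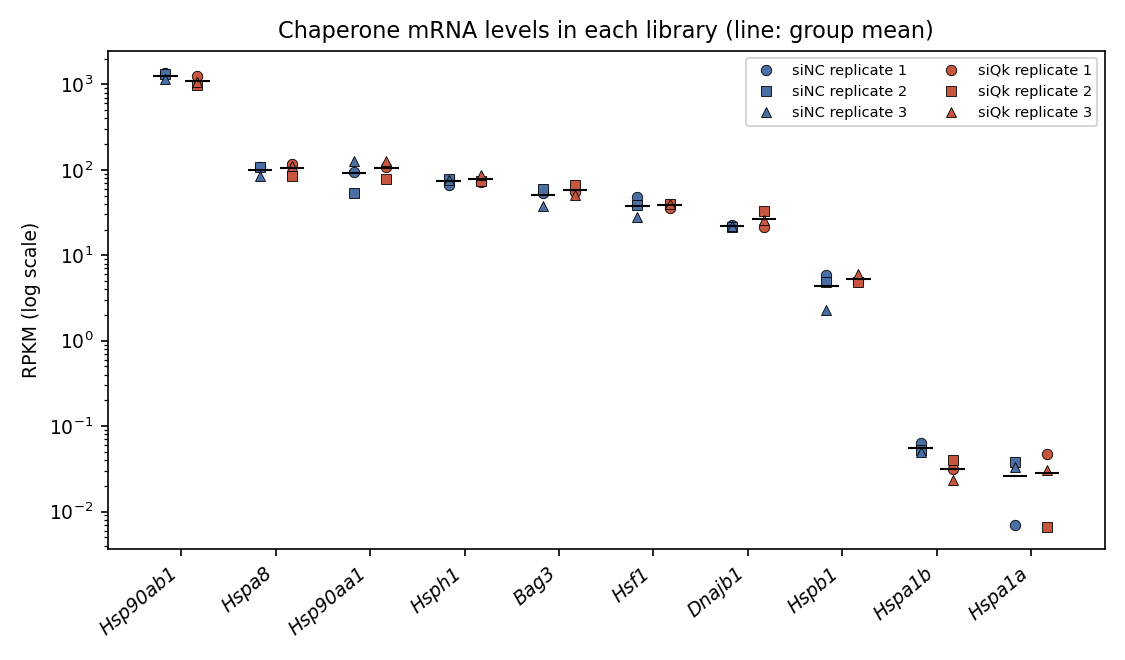
RPKM (log axis) of the 10 members in each of the 3 siNC (blue) and 3 siQk (red) libraries, with replicates as circle, square and triangle and the group mean as a line. Hsp90ab1 lies between 992 and 1343 RPKM, 7 members lie between 2.31 and 126 RPKM, and Hspa1a and Hspa1b lie at or below 0.0629 RPKM in both groups.

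The members spanned a wide range of levels per exon length. Hsp90ab1 was highest, at 992 to 1343 RPKM over the 6 libraries, and no other member came near it. Hspa8 (83.7 to 117 RPKM), Hsp90aa1 (53.9 to 126 RPKM) and Hsph1 (66.8 to 87.4 RPKM) followed with overlapping ranges. Bag3 (37.4 to 66.8 RPKM) overlapped Hsp90aa1 and Hsf1 (27.9 to 47.5 RPKM), and Hsf1 overlapped Dnajb1 (21.3 to 32.6 RPKM). Hspb1 (2.31 to 6.05 RPKM) lay below all of these without overlap. Hspa1b (0.0232 to 0.0629 RPKM) and Hspa1a (0.00667 to 0.0470 RPKM) were lowest and overlapped each other. The 10 members together took 0.407% to 0.509% of a library's counts, of which Hsp90ab1 alone took 0.274% to 0.371% of the library.

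The Hsp70 chaperones held both the constitutive and the stress-inducible genes. Hspa1a (chromosome 17, 34969190 to 34972156, minus strand) and Hspa1b (chromosome 17, 34956436 to 34959238, minus strand) encode almost the same inducible Hsp70 protein, which is scarce in unstressed cells and made in large amounts after heat or proteotoxic stress. Hsf1 is known to act at their promoters. RefSeq promoter windows (GRCm38.p6, 250 bases before to 50 after each start) were at hand for 6 of the 10 members and were searched on both strands for GAANNTTC and its alternative TTCNNGAA, 2 inverted units of a heat shock element, and for the longer GAANNTTCNNGAA and TTCNNGAANNTTC with 3 units, which contain the shorter ones. The 6 members had 8 windows, since Hsph1 and Dnajb1 each had 2 starts. The shorter letters were in 6 of these 8 windows (Hspa1a, Hspa1b, both of Hsph1, which overlap and share the matches, Hspb1 and Bag3) and in neither window of Dnajb1, against 15.06% of 32851 promoter windows. The longer letters were in both Hsph1 windows, against 0.6027% of all windows. The stretches around matches follow, 5′ to 3′ on the gene's strand, with the matched letters in capitals. They are shown because they let the inducible members be compared letter by letter.
Hspa1a, chr17:34972242-34972271: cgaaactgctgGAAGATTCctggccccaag
Hspa1b, chr17:34959324-34959353: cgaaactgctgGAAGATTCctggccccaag
Hsph1, chr5:149636351-149636380: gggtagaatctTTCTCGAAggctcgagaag
Hsph1, chr5:149636280-149636308: gctgcagaTTCTGGAAAGTTCtcctcagt
Hspb1, chr5:135887791-135887820: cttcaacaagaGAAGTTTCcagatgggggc
Hspb1, chr5:135887811-135887840: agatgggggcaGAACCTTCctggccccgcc
Bag3, chr7:128523614-128523632: ggatgggaccaGAAGTTTC

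The Hspa1a and Hspa1b stretches are the same, and in both genes the match begins 104 bases before the start. Over the 250 bases before the start the promoters differ at 3 positions (98.8% identity; C-207T, T-204C and T-2G, the Hspa1a base first, positions counted back from the start). In Hspb1 the matches begin 117 and 97 bases before the start, and in Bag3 the match lies 43 bases after it. A match is a description of letters and not a binding site.

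Hspa1a and Hspa1b were close to undetected in every library. Hspa1a had expected counts of 1, 5 and 4 in siNC and 6, 1 and 4 in siQk replicates 1 to 3, or 0.00702, 0.0377, 0.0332, 0.0470, 0.00667 and 0.0310 RPKM. These groups overlapped. Hspa1b had counts of 9, 7 and 6 in siNC and 4, 6 and 3 in siQk, or 0.0629, 0.0526 and 0.0497 RPKM against 0.0312, 0.0399 and 0.0232 RPKM. The Hspa1b groups did not overlap in RPKM, which gives the smallest p possible (exact permutation p = 0.1), but both groups held a library with 6 counts. Because the transcripts share sequence, their counts were also added: 10, 12 and 10 in siNC and 10, 7 and 7 in siQk. The 95% Poisson intervals, which cover counting error only, were 6.20 to 21.0 for the highest of these sums and 2.81 to 14.4 for the lowest. When no filter was applied, edgeR gave a log2 fold change of 0.08 for Hspa1a (adjusted p = 0.998) and of -0.82 for Hspa1b (adjusted p = 0.996), so neither passed the test at these counts.

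Hspa8 (chromosome 9, 40800984 to 40810087, plus strand) encodes Hsc70, the constitutive Hsp70. It stood at 109, 106 and 84.3 RPKM in siNC and at 117, 83.7 and 111 RPKM in siQk. Each group held a pair of higher libraries and 1 lower library, siNC replicate 3 and siQk replicate 2. The log2 fold change was 0.04 (SE 0.18, exact permutation p = 0.6). It was below 0 without siNC replicate 3 (-0.044), siQk replicate 1 (-0.054) or siQk replicate 3 (-0.018), and was 0.18 without siQk replicate 2. Per exon length, Hspa8 was 1017 to 2057 times the summed Hspa1a and Hspa1b level within a library. This ratio rests on sums of 7 to 12 counts and is only a rough value.

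Of the 2 cytosolic Hsp90 genes, the abundant one was steady between libraries and the other varied widely among the controls. Hsp90ab1 (chromosome 17, 45567775 to 45573271, minus strand) encodes the constitutive Hsp90 beta. It stood at 1343, 1305 and 1146 RPKM in siNC and at 1265, 992 and 1064 RPKM in siQk. It was the only tested member with a fold change below 0 (log2 -0.22, SE 0.12, exact permutation p = 0.2; siQk mean 87.5% of siNC), and siQk replicate 1 lay within the siNC range. Hsp90aa1 (chromosome 12, 110690605 to 110702728, minus strand) encodes the more stress-responsive Hsp90 alpha. It stood at 95.1, 53.9 and 126 RPKM in siNC and at 109, 77.7 and 126 RPKM in siQk. The lowest library, siNC replicate 2, and one of the highest, siNC replicate 3, were both controls and differed 2.34-fold. The log2 fold change was 0.15 (SE 0.44, exact permutation p = 0.6), and without siNC replicate 2 it was -0.14. Its within-group SD of 0.54 (log2 CPM) was at percentile 89.9 of all tested genes, against percentile 14.8 for Hsp90ab1.

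As a ratio within each library, Hsp90aa1 was 7.08%, 4.13% and 10.99% of the Hsp90ab1 RPKM in siNC and 8.62%, 7.83% and 11.9% in siQk replicates 1 to 3. The mean log2 ratio was -3.87 (SD 0.71, n = 3) in siNC and -3.43 (SD 0.31, n = 3) in siQk, a difference of 0.44 that was within the spread (exact permutation test, two-sided, p = 0.4). Without siNC replicate 2 the difference was 0.074, and without siNC replicate 3 it was 0.78. Hsp90ab1 was 8.43 to 24.2 times Hsp90aa1 in RPKM.

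**Figure D2:**
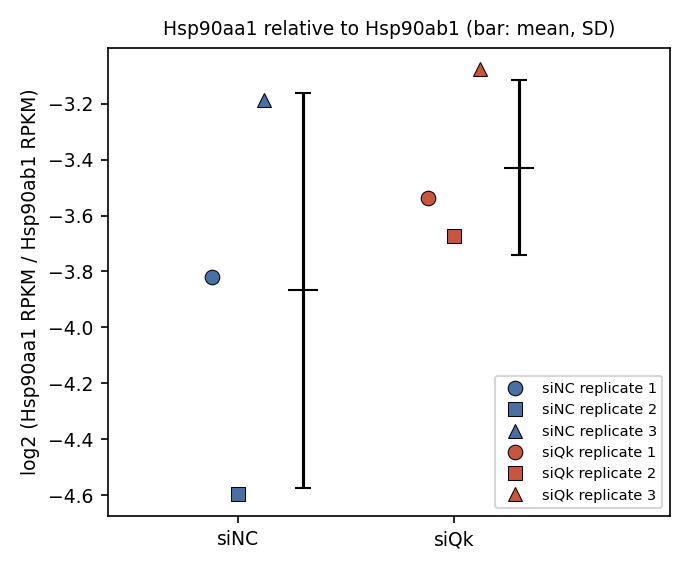
Log2 ratio of Hsp90aa1 to Hsp90ab1 RPKM in each library of siNC (blue) and siQk (red), with the group mean and SD as black bars. The siNC values spread from -4.60 to -3.19 and enclose the siQk values at -3.54 and -3.67, while siQk replicate 3 is highest at -3.08.

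The 3 genes that serve the Hsp70 cycle had overlapping groups, with the widest excess over the controls in a single siQk library of Dnajb1. Hsph1 (chromosome 5, 149614287 to 149636376, minus strand), an Hsp110 protein and nucleotide exchange factor, stood at 66.8, 78.0 and 76.9 RPKM in siNC and at 72.3, 74.3 and 87.4 RPKM in siQk. Its log2 fold change was 0.05 (SE 0.12, exact permutation p = 0.6), with the highest library in siQk and the lowest in siNC. The value was -0.047 without siQk replicate 3, -0.020 without siNC replicate 1 and 0.11 without siNC replicate 3. Dnajb1 (chromosome 8, 83608193 to 83612653, plus strand), the main inducible J-domain partner of Hsp70, stood at 22.8, 21.4 and 22.2 RPKM in siNC and at 21.3, 32.6 and 26.1 RPKM in siQk.
The 3 controls lay close together, siQk replicates 2 and 3 lay above all of them, and siQk replicate 1 lay below. The log2 fold change of Dnajb1 was 0.24 (SE 0.18, exact permutation p = 0.4), and it ran from 0.073 without siQk replicate 2 to 0.38 without siQk replicate 1. Bag3 (chromosome 7, 128523616 to 128546981, plus strand), which links Hsp70 and small heat shock proteins to selective autophagy, stood at 54.0, 59.9 and 37.4 RPKM in siNC and at 55.3, 66.8 and 51.2 RPKM in siQk. The lowest libraries were siNC replicate 3 and, within its group, siQk replicate 3. The log2 fold change of Bag3 was 0.18 (SE 0.21, exact permutation p = 0.5), and it ran from 0.022 without siNC replicate 3 to 0.29 without siNC replicate 2.

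The small heat shock protein and the transcription factor were both lowest in a control library. Hspb1 (chromosome 5, 135887919 to 135889563, plus strand), an oligomeric holding chaperone, stood at 5.80, 4.86 and 2.31 RPKM in siNC and at 4.99, 4.86 and 6.05 RPKM in siQk, from 102 to 304 counts. Its log2 fold change was 0.28 (SE 0.39, exact permutation p = 0.5), the largest among the 8 tested members, and -0.0093 without siNC replicate 3. Hsf1 (chromosome 15, 76477422 to 76501913, plus strand) stood at 47.5, 38.2 and 27.9 RPKM in siNC and at 35.9, 39.4 and 40.3 RPKM in siQk. All 3 siQk values lay inside the siNC range. The log2 fold change of Hsf1 was 0.0055 (SE 0.21, exact permutation p = 0.9), and -0.15 without siNC replicate 3.

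**Figure D3:**
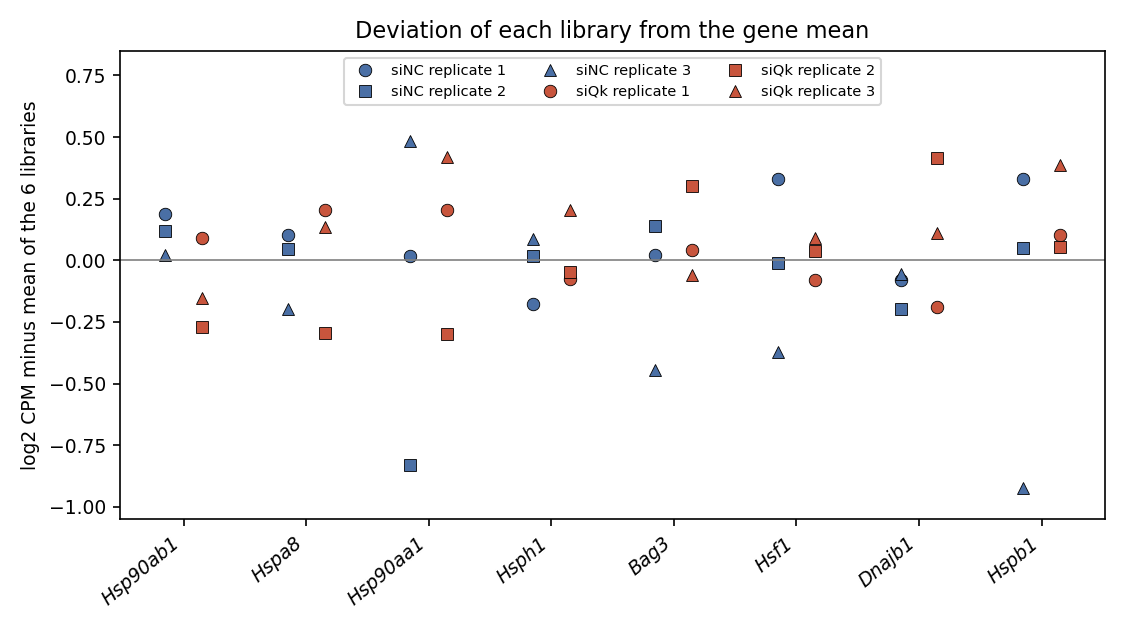
Log2 CPM of each of the 8 tested members in each library after subtracting the mean over the 6 libraries, siNC in blue and siQk in red. The widest spreads are Hsp90aa1, with siNC replicate 2 at -0.83, and Hspb1, with siNC replicate 3 at -0.92.

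Deviations from each gene's mean over the 6 libraries (log2 CPM) showed no library in which every tested member was high or low. The library siNC replicate 3 was lowest for 3 of the 8 members (Hspb1, Hsf1 and Bag3) and highest for 1 (Hsp90aa1), with a median deviation of -0.13. The library siQk replicate 3 was highest for 2 members (Hsph1 and Hspb1) and lowest for 0, with a median deviation of 0.12. The median deviations of the 4 other libraries lay between -0.0046 and 0.067. The library siNC replicate 3 also had the lowest total count (43000503), the smallest TMM scaling factor (0.956) and the lowest summed neuronal markers (251 RPKM); the part of these in the members' values was not tested.

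The members did not share 1 profile. With the mean profile of the 8 tested members (z-scored log2 CPM over 6 libraries), Pearson's r was 0.94 for Hspb1, 0.82 for Hsf1, 0.67 for Hspa8 and 0.45 for Bag3, and between -0.05 and 0.08 for Hsp90aa1, Hsp90ab1, Hsph1 and Dnajb1. These 6 points share library depth and scaling, and each gene is itself part of the mean. Outside the chaperone lists, the 5 tested genes most like that profile were Bex2 (r = 0.99), F12 (r = 0.99), Rbm14 (r = 0.98), Tjap1 (r = 0.98) and Snrnp40 (r = 0.98). In all 5 the lowest RPKM was in siNC replicate 3 and the highest in siQk replicate 3, as for Hspb1. Bex2 ranged from 207 to 380 RPKM, and F12 from 0.474 to 1.43 RPKM. The 5 genes were picked as the highest r among all tested genes outside the lists. With 6 points and so many genes ranked, r values this high can also arise among unrelated genes.

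Several members share read-length sequence with other genes, which bears on how their counts can be read. Of all 75-base windows in the annotated transcripts, 61.7% for Hspa1a and 55.8% for Hspa1b also occurred in another gene, mostly in each other. The share was 46.4% for Hspb1 (Hsp25-ps1), 42.8% for Hsp90aa1 (foremost Gm12346) and 33.1% for Hspa8 (foremost Gm15459). It was 0.537% for Hsp90ab1 and 0% for Hsph1, Dnajb1, Hsf1 and Bag3. How reads matching more than 1 gene were counted is not given in the sources used here. The split between Hspa1a and Hspa1b, their sum, and the levels of Hspb1, Hsp90aa1 and Hspa8 are uncertain to that extent. In addition, 564 of 2967 exon bases of Hspa1a overlap Gm20481 on the opposite strand, and 262 of 4301 exon bases of Hspa8 overlap small nucleolar RNA genes on the same strand. The library kit as named keeps no strand.

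**Figure D4:**
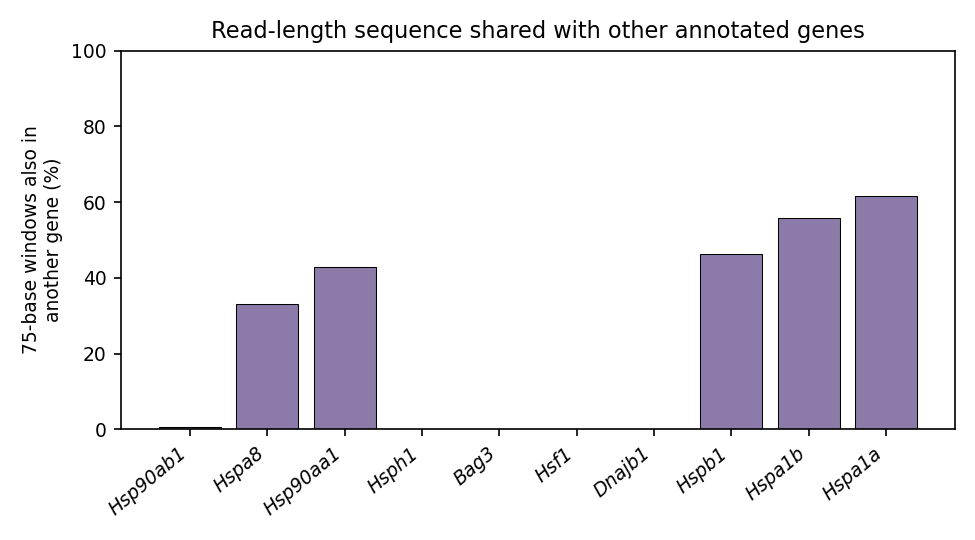
Percent of the 75-base windows in each member's annotated transcripts that also occur in a transcript of another gene, as bars, ordered by mean RPKM. The 2 inducible Hsp70 genes are highest at 61.7% and 55.8%, and 4 members are at 0%.

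The wider chaperone network was described with 6 lists of 79 genes, of which 71 passed the filter. With edgeR, 0 of the 71 were called, where 0.0079% of all tested genes were, and 1 (Dnaja3) had an unadjusted p under 0.05, where 2.89% of all tested genes did. DESeq2 also called 0 of them (0.150% of all tested genes called), as did both other edgeR tests (0.0395% each). The count of 1 at an unadjusted p under 0.05 was not stable. It was 0 without siNC replicate 3, siQk replicate 1 or siQk replicate 3, and 2 without siNC replicate 2 (Dnaja3 and Lonp1), with total-count scaling (Dnaja3 and Dnaja1) or with no filter. Without siNC replicate 1 or siQk replicate 2 it stayed at 1, but the gene was Dnaja1. Adjusted p was 0.9996 for every list gene named next (edgeR). Of the 71 genes, 34 had a fold change above 0 and 37 below, with a median log2 fold change of -0.0073. In 8 of the 71 genes (11.3%) the groups did not overlap in RPKM, where 8.84% of all tested genes did not.

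The other cytosolic Hsp70s and Hsp70 cochaperones (23 of 23 tested) had a median log2 fold change of 0.098, with 15 above 0 and 8 below. In 3 of them all siQk libraries were above all siNC libraries, where 5.35% of all tested genes had that order. Dnaja1, a J-domain protein of the cytosol, stood at 23.5, 22.1 and 18.6 RPKM in siNC and 28.4, 24.9 and 28.0 RPKM in siQk (log2 fold change 0.32, SE 0.10). Hspa2, an Hsp70 best known from the testis, stood at 2.42, 2.21 and 1.90 RPKM in siNC and 3.25, 2.88 and 2.88 RPKM in siQk (0.44, SE 0.10). Dnajb6, a J-domain protein that slows the aggregation of polyglutamine proteins, stood at 9.01, 8.50 and 8.13 RPKM in siNC and 9.78, 10.3 and 10.6 RPKM in siQk (0.23, SE 0.05).

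The Hsp90 cochaperones (16 of 16 tested) had a median of -0.06, with 7 above 0 and 9 below and the groups overlapping in all 16. The median was 0.0044 without siQk replicate 2. The smallest p in that list belonged to Sgta, which averaged 119 RPKM in siNC and 102 RPKM in siQk (log2 fold change -0.24, SE 0.12). Ahsa1, which speeds the ATPase cycle of Hsp90, averaged 131 and 151 RPKM (0.18, SE 0.11).

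Of the other genes listed as small heat shock proteins, 5 of 9 were tested, with 1 above 0 and 4 below and a median of -0.17. Without siNC replicate 1 the median was -0.047, and the fold change of Hspb8 was the same value. Hspb8 reached -0.38 without siQk replicate 3 and -0.35 without siNC replicate 3. Hspb8, the partner of Bag3, stood at 87.2, 67.1 and 56.0 RPKM in siNC and 54.7, 55.4 and 71.9 RPKM in siQk (log2 fold change -0.23, SE 0.22). Hspb11, whose value was also the list median, averaged 37.9 and 34.3 RPKM (-0.17, SE 0.11). The list went by gene names, and whether Hspb11 is a chaperone of this family was not checked. Hspb6 averaged 6.47 and 5.58 RPKM (-0.24, SE 0.42). It was at 0.056 without siQk replicate 2 and at -0.58 without siQk replicate 1. All 5 tested genes had overlapping groups.

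Of the heat shock factors and regulators, 4 of 7 were tested and all 4 lay above 0, with a median of 0.068 and overlapping groups. The median was -0.0083 without siQk replicate 2 and 0.13 without siNC replicate 3. Ier5, an Hsf1 target that also promotes Hsf1 activity, stood at 9.60, 12.6 and 6.87 RPKM in siNC and 8.27, 23.6 and 9.84 RPKM in siQk (log2 fold change 0.50, SE 0.51). One library set this value: without siQk replicate 2, the library also highest for Dnajb1 and Bag3, the fold change of Ier5 was -0.11. Hsbp1, a small protein that binds Hsf1, averaged 172 and 187 RPKM (0.09, SE 0.07), and Dedd2 averaged 5.10 and 5.35 RPKM (0.05, SE 0.18).

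The cytosolic chaperonin TRiC and its partner prefoldin (13 of 14 genes in the table, all 13 tested) had a median of -0.011, with 5 above 0 and 8 below. The median ran from -0.14 without siNC replicate 2 to 0.13 without siNC replicate 3. In 3 genes, all prefoldin subunits, the siQk libraries lay above all siNC libraries, where 5.35% of tested genes did. Pfdn2 stood at 269, 281 and 241 RPKM in siNC and 316, 331 and 303 RPKM in siQk (log2 fold change 0.24, SE 0.05). Pfdn5 averaged 208 and 247 RPKM (0.22, SE 0.07), and Pfdn4 averaged 56.9 and 66.7 RPKM (0.20, SE 0.11).

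The mitochondrial chaperones and proteases (10 of 10 tested) had a median of -0.10, with 2 above 0 and 8 below, and medians from -0.20 to -0.043 over the libraries left out. In 2 of them all siQk libraries lay below all siNC libraries, where 3.49% of tested genes did: Dnaja3 and Clpp, a protease subunit named here after its values were seen (92.8 to 104 RPKM in siNC and 88.8 to 91.2 RPKM in siQk). Dnaja3, the mitochondrial J-domain protein, stood at 63.5, 56.6 and 80.7 RPKM in siNC and 52.6, 50.1 and 52.0 RPKM in siQk (log2 fold change -0.41, SE 0.18). The protease Lonp1 stood at 398, 272 and 307 RPKM in siNC and 295, 216 and 256 RPKM in siQk (-0.38, SE 0.21), with overlapping groups. The disaggregase Clpb averaged 14.6 and 12.04 RPKM (-0.31, SE 0.25), also with overlapping groups. Single libraries moved these values: Dnaja3 was at -0.22 without siNC replicate 3, Lonp1 at -0.21 without siNC replicate 1 and Clpb at -0.13 without siQk replicate 2.

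**Figure D5:**
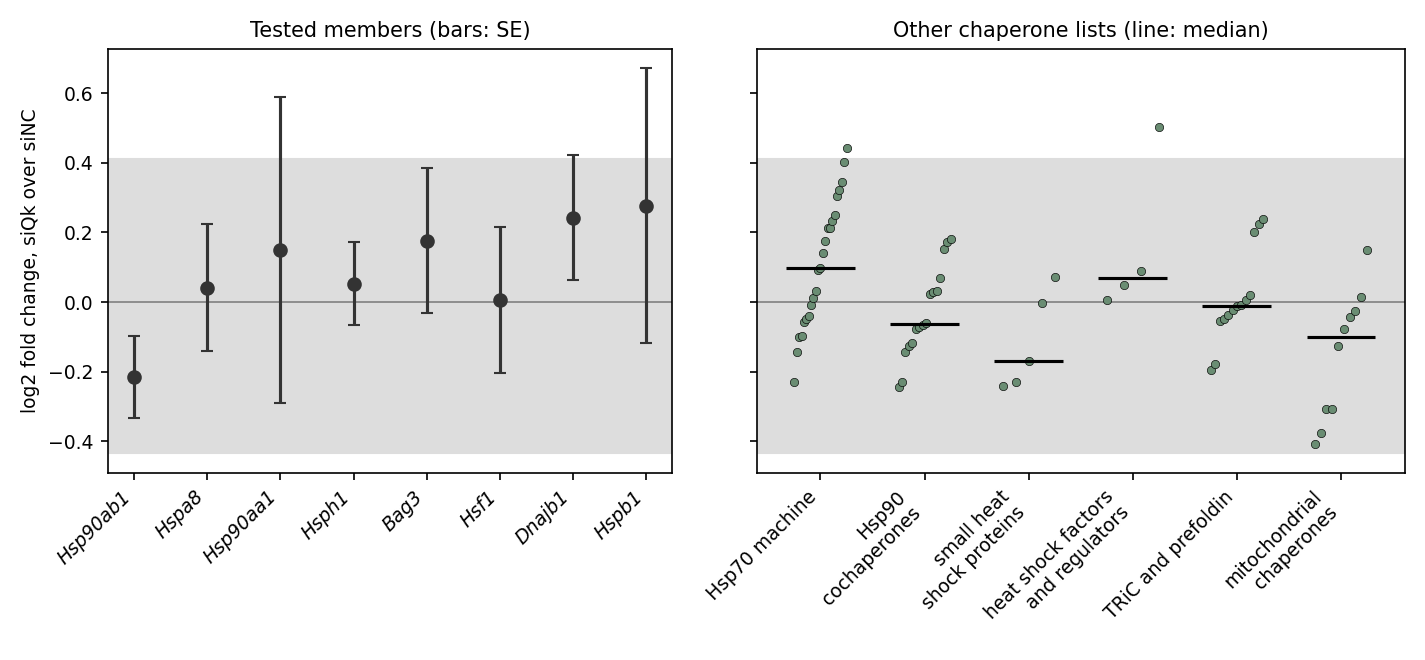
Log2 fold change (siQk over siNC) of the 8 tested members with SE bars (left) and of the tested genes in each of 6 other chaperone lists, one point a gene with the list median as a line (right). The grey band spans the 5th to 95th percentile of all 12665 tested genes (-0.43 to 0.41), and all 8 members lie inside it.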

How the data were processed

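Poly-A selected TruSeq v2 libraries were sequenced by the authors as pairs of 75-base reads, aligned with OLego to the mouse genome (mm10 per the labels) and counted per gene with Quantas. The deposited files hold expected counts, exon lengths (in bases) and the authors' RPKM values. RPKM was rebuilt from the deposited expected counts, exon lengths and column totals. Expected counts were rounded and fitted in edgeR 4.0.16 (R 4.3.3) with TMM scaling over the 12665 genes with average log2 CPM above 0, using the quasi-likelihood F test, siQk against siNC. A gene was called at p under 0.01 and Benjamini-Hochberg adjusted p under 0.1 over all genes tested. SE came from TMM-scaled log2 CPM (prior count 2). RPKM levels and ratios were compared by exact permutation over 20 arrangements (smallest p 0.1). Positions are from GENCODE M21. Scripts were tested on simulated data. Alternatives were other scalings, filters and tests (DESeq2 1.42.0 included), a replicate block and leaving out each library.

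The members and lists were chosen with earlier results of these data known. Named genes were the 10 members, Qk, up to 3 genes of smallest p per list and the 5 genes most like the members' mean profile. Some genes that this rule or the marker lists would name are not reported here. Counting error matters for genes with few counts (Hspa1a, Hspa1b, Stmn2, Mnx1 and Chat, and to a lesser degree F12 and Hspb1). For the other named genes precision is set mainly by having 3 libraries per group. The p-values measure the spread between these libraries.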

Additional observations from a re-analysis of the deposited data

How the results depend on the processing

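With 18 alternatives, some of which left the values of the main fit unchanged, 0 members and 0 genes of the other chaperone lists were called. Under each, 0 members had an unadjusted p under 0.05. The smallest p of any member was 0.0991 (Dnajb1) and the smallest adjusted p was 0.895. Over all genes the count called was 5 with the edgeR exact test, 5 with the likelihood-ratio test, 19 with DESeq2 and 0 to 1 when each library was left out. Qk lost its call without siNC replicate 1 (log2 fold change -3.09, adjusted p = 0.125, edgeR), and ran from -3.19 to -2.67 over the libraries left out. The difference in the Hsp90 log2 ratio ran from 0.074 to 0.78 over the libraries left out.

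Of 576 results for 32 named tested genes under the alternatives, 557 kept direction and call, 18 turned direction in 9 genes and 1 (Qk) lost its call. The 557 include alternatives that returned the fold changes and p-values of the main fit. These were the adjusted p cutoff of 0.05, the older form of the quasi-likelihood test, and Hspa1a and Hspa1b summed. They are therefore no separate check of direction. With each library left out, log2 fold changes ran from -0.054 to 0.18 for Hspa8, -0.14 to 0.48 for Hsp90aa1, -0.047 to 0.11 for Hsph1, -0.0093 to 0.55 for Hspb1, -0.15 to 0.20 for Hsf1, -0.58 to 0.056 for Hspb6, -0.11 to 0.77 for Ier5, -0.092 to 0.15 for Dedd2 and -0.012 to 0.26 for Tjap1. Hsf1 was at -9.64e-05 with no filter. Without turning direction, Hsp90ab1 ran from -0.32 to -0.14, Ahsa1 from 0.080 to 0.27, Hspb11 from -0.25 to -0.11, Hsbp1 from 0.034 to 0.14 and Pfdn4 from 0.091 to 0.27. The median of the other Hsp70s and Hsp70 cochaperones ran from 0.072 to 0.14. The median of the 8 members was lowest (-0.019) when siQk replicate 3 was left out, highest (0.18) when siNC replicate 1 was, and 0.0062 when siNC replicate 3 was. Fewer samples enter each of these fits, and the cause of the turns was not tested.

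The labels give the groups the same replicate numbers. Same-numbered libraries did not deviate together in a common way, with correlations over 12665 genes of 0.21 (replicate 1), 0.018 (replicate 2) and -0.17 (replicate 3). The numbers were therefore not taken as pairs. No correlation of differently numbered libraries is given for comparison. With a replicate block, 0 members and 1 gene in all were called, Qk stood at -2.95 (adjusted p = 0.0112, edgeR), and no call changed. The 1 list gene at an unadjusted p under 0.05 was then Lonp1 in place of Dnaja3. For Hspa1a and Hspa1b the depth limits any statement, since neither exceeded 9 counts in a library. With 3 libraries per group, a small change in the other members cannot be separated from the spread between libraries. In siQk that spread may hold differences between siRNAs as well as between cultures.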
